A study of Mus musculus with 4 samples.

Results

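The genes that take glucose into the cell, split it to pyruvate and lactate, admit pyruvate to the mitochondrion, or divert sugar phosphate into the pentose phosphate and glycogen branches were followed in mouse aortic endothelial cells. The 38 members were chosen by gene symbol, with earlier results of these data known. They run from glucose entry to lactate export (24 trunk genes) and along the branches (14 genes). All 38 had a row among the 27179 genes of the deposited count table. Each of the 2 groups held 2 libraries, described by the submitters as biological replicates, of the mAEC line, a culture of murine aortic endothelial cells. Control cells were kept in normal medium, and the conditioned medium group received supernatant of TNFα+CD68+ macrophages, with no other allele or agent named in the labels. No supernatant of another cell was among the samples, so what came from the macrophages and what came from conditioning the medium cannot be told apart, and the line stands in for the vessel wall only as a culture. The sources used here give neither the length of exposure nor whether replicates were separate cultures. The p-values therefore measure the spread between these libraries, estimated in large part from other genes, and that spread may be technical.

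Glucose enters most cells through facilitated carriers and is trapped as glucose 6-phosphate by hexokinase. Phosphofructokinase then commits it to glycolysis, and pyruvate at the end is either reduced to lactate and exported or oxidised in the mitochondrion by the pyruvate dehydrogenase complex, which the PDH kinases switch off. Endothelial cells are known for drawing most of their ATP from glycolysis although they lie next to oxygenated blood. Many glycolytic genes are known targets of hypoxia-inducible factor (HIF), which is also known to answer signals other than low oxygen.

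Library totals ran from 13815695 to 18005840 counts, and 3 counts equalled 0.167 to 0.217 CPM, a floor that covers counting error only. CPM is the count per 1e6 library counts after scaling with edgeR's TMM factors. Endothelial identity genes were well expressed, Pecam1 at 2386 to 2445 CPM and Cdh5 at 1894 to 2013 CPM over the 4 libraries, although Vwf stood at 2.30 to 3.49 CPM. Of 12 such markers 3 rose and 2 fell (41.7% called, against 16.8% of all tested genes). Summed fibroblast markers stood at 25.8 and 27.9 CPM in control and 32.6 and 32.9 CPM in treated libraries. Nearly all of this was Pdgfra, the 1 of 6 fibroblast markers tested, which was called higher by 0.28 ± 0.08 on the log2 scale (edgeR adjusted p = 0.0171; alternatives 0.00447 to 0.283, not called in DESeq2, without control replicate 1 or without either treated library), while Col1a2, Lum and Thy1 had 0 counts; the part of this in the results was not tested. Summed smooth muscle markers stood at 229 to 244 CPM, and red cell markers at no more than 0.548 CPM. Of 12 macrophage markers 3 passed the count filter and 0 of these differed between groups (edgeR; 0 also at an unadjusted p under 0.05, and 0 in DESeq2 and limma-voom). Beside the 16.8% called over all genes tested, 3 genes are too few for a count of 0 to stand apart. The summed level of the 12 macrophage markers was 231 and 260 CPM in control and 253 and 260 CPM in conditioned medium, nearly all of it Cd68. The defining markers Adgre1 and Tyrobp had 0 counts in all 4 libraries, and Ptprc had 0 in 3 of them. Mitochondrial genes took 4.68% and 4.42% of control counts and 4.21% and 4.25% of treated counts; with those genes left out of the totals the trunk's share of counts, given further on, still differed between groups by 0.143 percentage points against 0.139 with them.

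Most tested trunk genes of glycolysis rose in conditioned medium, and most branch genes were not called. In these bulk libraries more cells with a transcript and more transcript per cell cannot be told apart. Of 38 members 34 passed the count filter, and 16 of these rose and 0 fell at an adjusted p under 0.05 (edgeR's quasi-likelihood test, two-sided, Benjamini-Hochberg over 13897 genes; 0 fell at an unadjusted p under 0.05 too, and 0 in DESeq2 or limma-voom). Over all genes tested 8.53% were called higher, 8.23% lower and 16.8% in either direction. Along the trunk 14 of 20 tested genes rose, with a median log2 fold change of 0.29. On the branches 2 of 14 rose, with a median of 0.03, where the median over all tested genes was 0.00. The rises ran from 1.13-fold for Gapdh to 1.82-fold for Pfkfb4, with a median of 1.26-fold. In 21 of the 34 members both treated libraries lay above both controls, against 28.5% of all tested genes, and in 23 the groups did not overlap in either direction, against 57.2%.

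**Figure D1:**
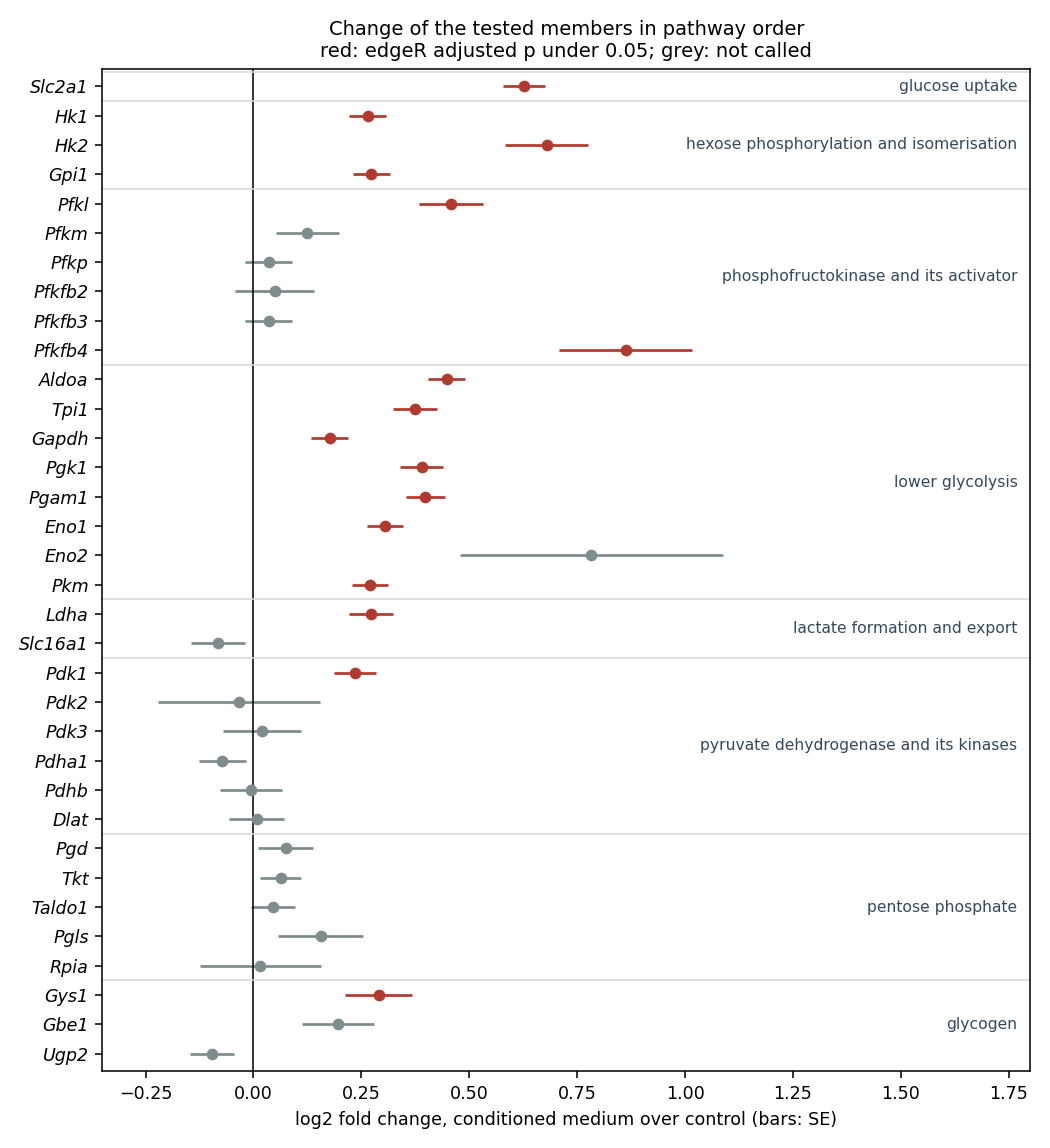
Log2 fold change of conditioned medium over control for the 34 tested members in pathway order, with bars for the SE of the fit (2 libraries a group). The 16 red points, called by edgeR, lie along the trunk from Slc2a1 to Ldha with Pdk1 and Gys1, and the pentose phosphate genes, in grey, sit between 0.02 and 0.16.

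The bases before their start sites were searched for the core letters of the HIF response element. The windows were the 250 bases before each RefSeq start in GRCm38.p6, searched on both strands for ACGTG, which reads CACGT on the opposite strand. GCGTG, which reads CACGC there, was searched separately. The palindromic E-box, CACGTG, overlaps the first motif on both strands and was counted in it too. At least 1 ACGTG stood before 7 of the 16 genes that rose (43.8%), before 8 of the 18 tested members not called (44.4%) and before 25.1% of the 10142 genes with a window among the 13897 tested. By window, since some genes have several starts, these shares were 33.3%, 40.7% and 21.6%. For GCGTG the gene shares were 56.3%, 77.8% and 49.5%, and for CACGTG 6.25%, 27.8% and 9.89%. Of the 32 HIF targets outside glycolysis described further on, 23 had a window, and of these 65.2% held ACGTG, 87.0% held GCGTG and 8.70% held CACGTG. These shares leave out the genes without a window, and differences between the sets were not tested. A match describes the sequence and shows no binding. The 6 windows printed here are those of the main glucose carrier, the inducible hexokinase, 2 trunk enzymes with several ACGTG matches, a gene that rose whose window lacks ACGTG and holds 1 GCGTG, and the lactate exporter, which was not called and holds the E-box. The printed Ldha window, from a gene that rose, also holds the E-box, at 2 places. Its 5 ACGTG matches count each E-box on both strands. The other Ldha window, not printed, holds 0 ACGTG and 1 GCGTG. Each printed window is given 5′ to 3′ on the gene's strand, with ACGTG or CACGT in capitals.
Slc2a1 (plus strand, chr4:119108495-119108744): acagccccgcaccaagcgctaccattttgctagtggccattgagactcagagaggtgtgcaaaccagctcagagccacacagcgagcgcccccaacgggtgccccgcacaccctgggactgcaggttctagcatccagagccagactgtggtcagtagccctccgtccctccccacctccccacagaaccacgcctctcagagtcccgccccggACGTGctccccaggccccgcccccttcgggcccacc
Hk2 (minus strand, chr6:82774455-82774704): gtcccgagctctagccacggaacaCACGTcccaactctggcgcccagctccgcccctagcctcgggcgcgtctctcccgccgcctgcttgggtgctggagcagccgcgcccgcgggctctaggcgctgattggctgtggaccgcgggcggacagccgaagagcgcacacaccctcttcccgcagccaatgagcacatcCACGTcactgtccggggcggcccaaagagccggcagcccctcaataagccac
Pgk1 (plus strand, chrX:106186850-106187099): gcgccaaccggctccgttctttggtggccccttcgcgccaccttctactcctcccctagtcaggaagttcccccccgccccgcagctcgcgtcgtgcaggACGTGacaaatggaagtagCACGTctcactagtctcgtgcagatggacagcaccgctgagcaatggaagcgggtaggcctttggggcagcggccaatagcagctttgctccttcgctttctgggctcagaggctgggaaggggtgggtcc
Ldha (plus strand, chr7:46845554-46845803): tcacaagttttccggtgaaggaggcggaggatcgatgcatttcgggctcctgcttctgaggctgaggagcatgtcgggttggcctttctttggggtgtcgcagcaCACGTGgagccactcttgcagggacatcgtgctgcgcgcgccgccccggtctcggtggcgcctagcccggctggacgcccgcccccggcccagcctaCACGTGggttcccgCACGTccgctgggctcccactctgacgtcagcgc
Pfkl (minus strand, chr10:78009808-78010057): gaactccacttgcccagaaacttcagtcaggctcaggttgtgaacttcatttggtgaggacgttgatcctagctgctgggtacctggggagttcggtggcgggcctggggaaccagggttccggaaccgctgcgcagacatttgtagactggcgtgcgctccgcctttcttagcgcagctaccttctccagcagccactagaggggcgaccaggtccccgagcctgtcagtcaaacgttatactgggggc
Slc16a1 (plus strand, chr3:104638414-104638663): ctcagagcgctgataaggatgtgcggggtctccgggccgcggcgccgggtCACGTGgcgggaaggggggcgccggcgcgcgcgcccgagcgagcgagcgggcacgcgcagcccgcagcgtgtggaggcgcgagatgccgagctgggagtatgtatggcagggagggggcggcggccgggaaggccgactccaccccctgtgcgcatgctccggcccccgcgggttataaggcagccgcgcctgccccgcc

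Of the 2 glucose carrier members 1 was expressed well enough to be tested. Slc2a1 (chr4:119108745-119137330, mm10), which encodes GLUT1, the carrier of basal glucose uptake, stood at 98.1 and 94.8 CPM in control and at 149 and 149 CPM in conditioned medium. The 2 treated libraries were nearly equal and far above both controls, by 0.63 ± 0.05 on the log2 scale (SE of the fit, as below; edgeR adjusted p = 2.06e-08). Slc2a3, for the high-affinity carrier GLUT3, had 1 and 2 counts in control and 3 and 2 in treated libraries and was not tested. In the promoter window above Slc2a1 has its single ACGTG beginning 36 bases before the start.

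Both hexokinase members rose. Hk1, for the constitutive enzyme bound to mitochondria, went from 285 and 276 CPM to 334 and 339 CPM, 0.26 ± 0.04 on the log2 scale (edgeR adjusted p = 1.85e-04). Hk2 (chr6:82725025-82774454), for the inducible enzyme, went from 16.0 and 15.8 CPM to 26.9 and 24.1 CPM, 0.68 ± 0.10 on the log2 scale (edgeR adjusted p = 4.51e-05). Neither pair overlapped. Gpi1, for the isomerase that makes fructose 6-phosphate, rose from 318 and 310 CPM to 385 and 374 CPM (0.27 ± 0.04; edgeR adjusted p = 1.30e-04). Without conditioned medium replicate 2 Hk1 kept a log2 fold change of 0.25 and lost its call (edgeR adjusted p = 0.0537, its 13 alternatives running from 2.98e-11 to that value).

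At the committing step the liver-type subunit rose and the other subunits were not called. Pfkl (chr10:77986947-78009807) stood at 58.8 and 48.8 CPM in control and at 69.4 and 77.9 CPM in conditioned medium, 0.46 ± 0.07 on the log2 scale (edgeR adjusted p = 1.94e-04). Its libraries were the most scattered of the trunk genes called above 50 CPM, but the groups did not overlap. Pfkm, the muscle type, had 31.2 and 31.5 against 34.7 and 33.8 CPM, and Pfkp, the platelet type, 69.1 and 72.8 against 73.1 and 72.4 CPM. Their log2 fold changes had 95% intervals of -0.03 to 0.28 and -0.08 to 0.15. The spans of Pfkm and Pfkp overlap the counted genes Senp1 and Pitrm1, while that of Pfkl overlaps none. How reads in shared spans were counted was not stated. The PFKFB enzymes make and degrade fructose 2,6-bisphosphate, the strongest activator of phosphofructokinase. Of these Pfkfb4 (chr9:108988272-109032236) rose from 5.83 and 5.34 CPM to 9.24 and 10.9 CPM, the largest fold among the called members (log2 0.86 ± 0.15; edgeR adjusted p = 4.95e-04). Pfkfb3, the form best known in endothelial sprouting, was at 96.9 and 105 CPM in control and 99.8 and 106 CPM in treated libraries, with overlapping groups and an interval of -0.08 to 0.15. Pfkfb2 had 19.6 and 21.4 against 21.3 and 21.1 CPM and an interval of -0.14 to 0.24. Without conditioned medium replicate 2 Pfkl and Pfkfb4 had log2 fold changes of 0.37 and 0.72 and lost their calls (edgeR adjusted p = 0.0662 and 0.0636, over alternatives from 2.22e-15 and 3.72e-06).

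Every step from aldolase to pyruvate kinase had a gene that rose. Aldoa (chr7:126795234-126800994), for the aldolase that splits fructose 1,6-bisphosphate, went from 955 and 928 CPM to 1249 and 1318 CPM, 0.45 ± 0.04 on the log2 scale (edgeR adjusted p = 4.33e-07). Pgk1, for the first ATP-yielding enzyme, went from 666 and 597 CPM to 801 and 854 CPM (0.39 ± 0.05; edgeR adjusted p = 1.46e-05). Pgam1, for phosphoglycerate mutase, went from 288 and 267 CPM to 361 and 370 CPM (0.40 ± 0.05). In each of these the lower treated library lay above the higher control. Tpi1, for triose phosphate isomerase, rose from 208 and 189 CPM to 249 and 265 CPM (0.37 ± 0.05), and Pkm, for pyruvate kinase, from 1274 and 1226 CPM to 1505 and 1509 CPM (0.27 ± 0.04). The smallest rise was in Gapdh, often used as a reference gene, from 438 and 420 CPM to 485 and 485 CPM (0.18 ± 0.04; edgeR adjusted p = 0.00597).

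For enolase 2 rows share sequence. Eno1 rose from 416 and 414 CPM to 503 and 522 CPM (0.30 ± 0.04; edgeR adjusted p = 3.44e-05), but its near-identical copy Eno1b held 19602 counts over the 4 libraries beside 28559 for Eno1, and reads can be split between them. Eno1b had 0.29 ± 0.04 on the log2 scale (edgeR adjusted p = 7.67e-05), so both rows moved alike. Eno2, the neuronal form, stood at 1.22 and 1.37 against 2.455 and 2.052 CPM on 18 to 37 counts a library and was not called (log2 0.78 ± 0.30; edgeR adjusted p = 0.0861). Aldoc, the brain aldolase, had 0 to 2 counts a library and was not tested. Without conditioned medium replicate 2 Gapdh and Pkm lost their calls at log2 fold changes of 0.18 and 0.27 (edgeR adjusted p = 0.184 and 0.0715, over alternatives from 3.57e-07 and 1.53e-21), and Gapdh also without replicate 1 of that group (edgeR adjusted p = 0.164).

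**Figure D2:**
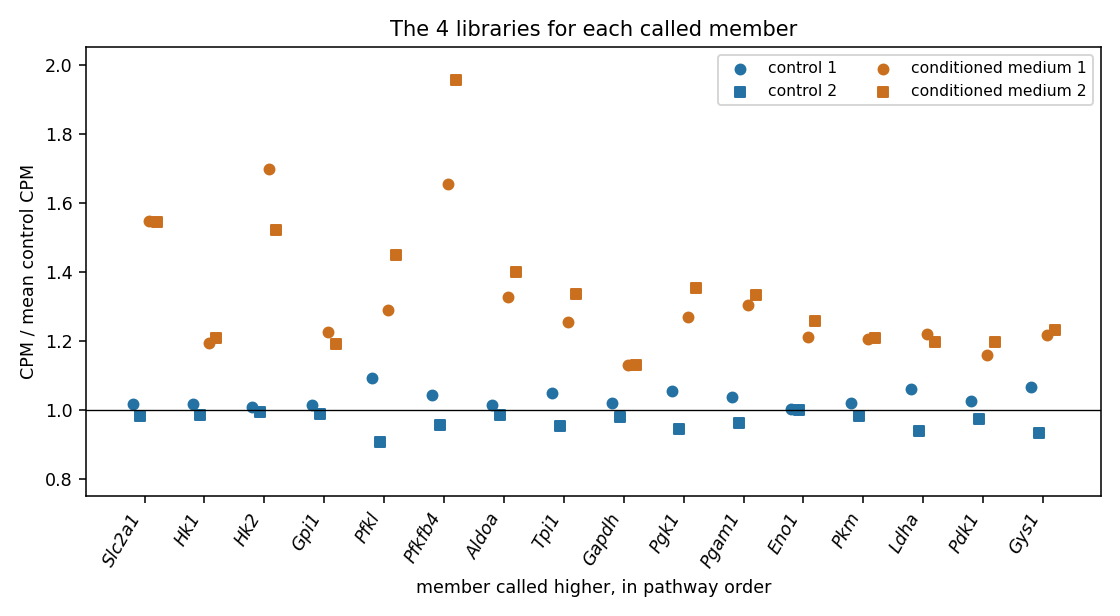
CPM of each of the 4 libraries over the mean control CPM of that gene, for the 16 members called higher, with blue for control, orange for conditioned medium, circles for replicate 1 and squares for replicate 2. In all 16 both orange points lie above both blue points, as in 28.5% of all tested genes. The call was made on these same libraries and favours that order, so the order adds no support. In all 16 control 2 lies below control 1.

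Of the genes for lactate formation and export, Ldha rose and Slc16a1 did not pass the test; only transcripts were measured. Ldha, for the muscle-type subunit that favours lactate, went from 233 and 206 CPM to 268 and 263 CPM, 0.27 ± 0.05 on the log2 scale (edgeR adjusted p = 7.65e-04). Its call was lost without either conditioned medium library, at 0.26 and 0.29 (edgeR adjusted p = 0.0636 and 0.0640, over alternatives from 2.90e-15). Ldhb, for the heart-type subunit, had 1 to 7 counts a library. Slc16a1, for the lactate carrier MCT1, stood at 54.9 and 58.4 CPM in control and 51.4 and 55.4 CPM in conditioned medium. Its groups overlapped and its log2 fold change of -0.08 had an interval of -0.21 to 0.05, which lies below every fitted rise called on the trunk. Slc16a3, for the hypoxia-inducible carrier MCT4, had 2 to 9 counts a library in a span shared with Csnk1d and was not tested. Bsg, whose product basigin carries MCT1 to the membrane, rose from 263 and 259 CPM to 308 and 328 CPM (0.29 ± 0.04; edgeR adjusted p = 1.33e-04; 0.0656 without conditioned medium replicate 2, over alternatives from 1.09e-11).

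At the pyruvate dehydrogenase complex a kinase gene rose and 0 of 3 subunit genes were called (edgeR; 0 at an unadjusted p under 0.05, and 0 in DESeq2 and limma-voom). With 16.8% of all tested genes called, 3 genes are too few to set a count of 0 apart from that share. Pdk1, for a kinase that inactivates the complex, went from 131 and 125 CPM to 148 and 153 CPM, 0.24 ± 0.05 on the log2 scale (edgeR adjusted p = 0.00175). Without conditioned medium replicate 2 it stood at 0.21 and was not called (edgeR adjusted p = 0.122, over alternatives from 2.18e-06). Pdk2 at 5.35 to 8.49 CPM and Pdk3 at 21.4 to 23.8 CPM had overlapping groups and were not called. Pdha1, Pdhb and Dlat, for the E1 and E2 subunits, had log2 fold changes of -0.07, -0.00 and 0.01, with intervals of -0.19 to 0.04, -0.15 to 0.15 and -0.12 to 0.14. Pdk4, a kinase gene outside the members, had 19.5 and 20.5 CPM in control and 16.8 and 17.0 CPM in treated libraries and was not called (edgeR adjusted p = 0.0947). Mpc1, for a subunit of the mitochondrial pyruvate carrier, fell from 31.1 and 31.4 CPM to 24.6 and 26.3 CPM (-0.29 ± 0.08; edgeR adjusted p = 0.0150), a call lost when either treated library was left out and under DESeq2 (alternatives 0.00626 to 0.240). Its partner Mpc2 stood at 9.29 and 9.38 against 9.96 and 10.04 CPM.

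The pentose phosphate members, which make NADPH and ribose 5-phosphate, gave 0 calls among 5 (edgeR; 0 at an unadjusted p under 0.05, and 0 in DESeq2 and limma-voom). Over all genes tested 16.8% were called, and 5 genes are too few to set a count of 0 apart from that share. Tkt, for transketolase, stood at 135 and 131 CPM in control and 140 and 138 CPM in treated libraries, and Taldo1, for transaldolase, at 130 and 141 against 144 and 138 CPM. Pgd, for the second NADPH-yielding dehydrogenase, stood at 60.05 and 53.6 against 57.8 and 61.6 CPM. The upper ends of their log2 intervals were 0.16, 0.15 and 0.21, below the fitted 0.26 of Hk1 and 0.27 of Gpi1 just upstream. The intervals of Hk1 and Gpi1 ran from 0.18 to 0.35 and from 0.18 to 0.36, and that of Pgd reached into both. The difference between branch and trunk was not tested. Pgls and Rpia, less abundant at 8.42 to 19.6 CPM, had wider intervals reaching 0.36 and 0.31. G6pdx, for the enzyme that opens the pathway, was not a member and stood just past the threshold, at 61.4 and 63.3 against 69.4 and 70.0 CPM (0.16 ± 0.06; edgeR adjusted p = 0.0533; alternatives 0.0341 to 0.456).

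On the glycogen branch Gys1, for glycogen synthase, rose from 32.5 and 28.4 CPM to 37.0 and 37.5 CPM (0.29 ± 0.08; edgeR adjusted p = 0.0130). Of the 16 calls it was lost under the most alternatives: in DESeq2 (adjusted p = 0.219), when either treated library was left out, and without control replicate 2, where the log2 fold change was 0.20 (edgeR adjusted p = 0.0896; alternatives from 2.07e-04). Its span overlaps Ruvbl2. Gbe1, for the branching enzyme, stood at 23.9 and 23.1 against 27.4 and 26.5 CPM and was not called (edgeR adjusted p = 0.115). Ugp2, which makes UDP-glucose, stood at 95.7 and 93.1 against 86.7 and 89.8 CPM (edgeR adjusted p = 0.225). Pgm1, for the phosphoglucomutase that joins glycolysis to this branch, rose from 50.6 and 41.4 CPM to 64.3 and 61.8 CPM (0.45 ± 0.07; edgeR adjusted p = 2.10e-04).

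In total the 24 trunk genes took 0.545% and 0.533% of all counts in the control libraries and 0.670% and 0.686% in the conditioned medium libraries. This share does not depend on the scaling. The means were 0.539% ± 0.00892 and 0.678% ± 0.0116 (SD, n = 2), a ratio of 1.26, and the groups did not overlap. With 2 libraries against 2 an exact permutation test cannot go below p = 0.333. The 14 branch genes took 0.0829% ± 0.000531 and 0.0873% ± 0.000369 (SD, n = 2), a ratio of 1.05. Aldoa made up 25.3% of the trunk's gain in CPM, Pkm 19.0% and Pgk1 14.4%, from 17.4%, 23.1% and 11.7% of its control level.

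Levels of different genes were set side by side per kb of exon. In control, Pkm at 481 ± 13.1 CPM per kb (SD, n = 2) was highest, followed by Aldoa at 367 ± 7.37, Pgk1 at 346 ± 26.6 and Gapdh at 287 ± 8.23 CPM per kb; Aldoa and Pgk1 differed by less than the SD of Pgk1. In conditioned medium the same order held, at 580 ± 1.27, 500 ± 18.9, 453 ± 20.5 and 325 ± 0.110 CPM per kb. The upstream genes lay lower: Hk1 at 57.7 ± 1.30, Slc2a1 at 29.6 ± 0.714, Pfkp at 16.5 ± 0.603 and Pfkl at 14.4 ± 1.88 CPM per kb in control. In treated libraries Pfkl stood at 19.7 ± 1.62 and Pfkp at 16.9 ± 0.113 CPM per kb. Exon lengths are from another annotation than the counting used, so levels between genes are approximate while changes of a gene are not touched.

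The makeup of the isozyme families was measured as each gene's share of the members of its family in counts per kb within a library. Hk2 took 4.63% and 4.71% of hexokinase in control and 6.51% and 5.80% in conditioned medium. Pfkl took 37.3% and 32.3% of phosphofructokinase, then 39.4% and 42.6%, while Pfkp went from 38.1% and 41.8% to 36.0% and 34.4%. Pfkfb4 took 7.23% and 6.19% of the PFKFB family, then 10.6% and 11.8%, and Pfkfb3 went from 75.9% and 76.6% to 72.4% and 72.4%. In each of these 5 genes the groups did not overlap, as in 57.2% of all tested genes by CPM. Shares within a family add up to the whole, so the falls of Pfkp and Pfkfb3 mirror the rises beside them. In CPM the groups of Pfkp and Pfkfb3 overlapped, at log2 fold changes of 0.04 and 0.04. The Pdk1 share of the 3 PDH kinase members was 65.9% and 63.0% in control and 66.4% and 69.5% in treated libraries, with a gap between the nearest libraries of the groups that is smaller than the distance within either pair. Among the member pairs of glucose carriers, aldolases, lactate dehydrogenases and lactate carriers 1 gene held over 98% of the pair in every library. Eno1 likewise held over 98% of its pair with Eno2, but Eno1b and Eno3, which are not members, are left out of that share. With 2 libraries against 2, none of these shares could pass an exact permutation test.

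**Figure D3:**
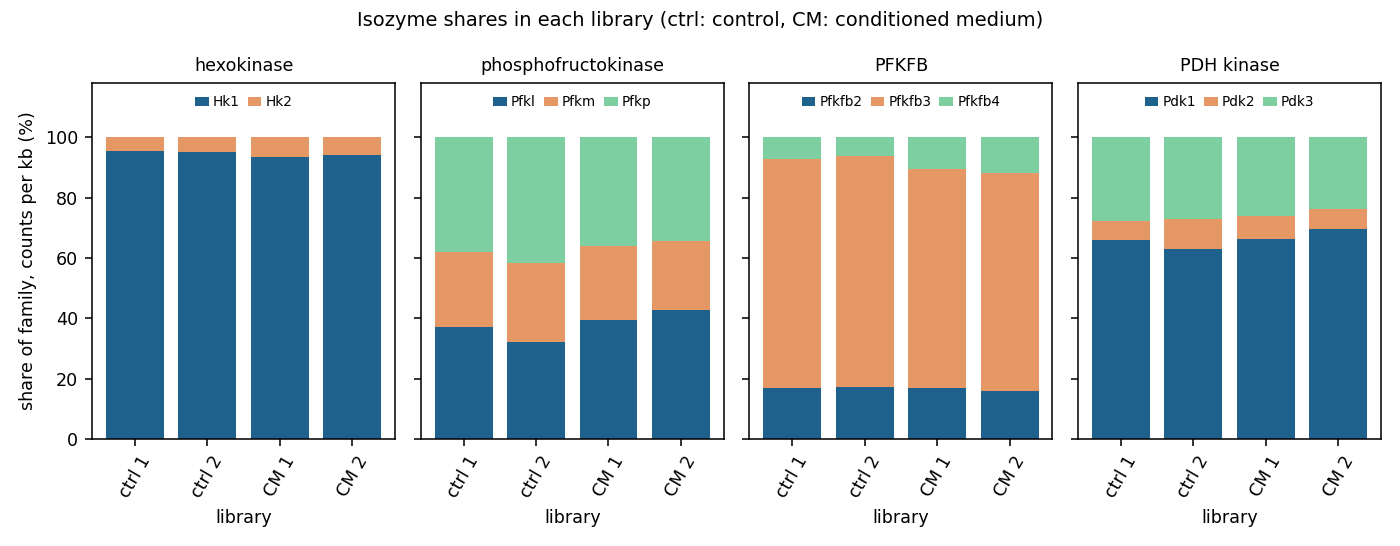
Share of each gene among the members of its family, in counts per kb of exon, as stacked bars for each of the 4 libraries. The Hk2, Pfkl and Pfkfb4 parts are larger in both conditioned medium libraries than in both controls, while Hk1 and Pfkfb3 stay the main form of their families.

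The control libraries differed from each other across these genes. In all 16 members called higher control 2 lay below control 1, by a median log2 ratio of -0.07 and by up to -0.27 in Pfkl, while over all tested genes the median was 0.00 and 6844 of 13897 lay below. The order was not limited to genes that rose: control 2 lay below control 1 in 12 of the 14 branch members, by a median of -0.06, and in 14 of the 20 tested trunk members, by a median of -0.04. Conditioned medium 2 lay below conditioned medium 1 in 5 of the 16. The part of this control difference in the results was not tested. Without control 2, 15 of the 16 stayed called, with Gys1 lost, in a fit that called 1485 genes higher in all against 1186 with 4 libraries. Without control 1 all 16 stayed called, beside 1236 genes in all. Without conditioned medium 1, 13 stayed called, beside 463 in all, and without conditioned medium 2, 8 did, beside 323. The number of calls over all genes thus moved with the library left out. The 8 were Slc2a1, Hk2, Gpi1, Aldoa, Tpi1, Pgk1, Pgam1 and Eno1. All 16 fitted log2 fold changes stayed above 0 in each of these fits. Both treated libraries lay above both controls in all 16, so leaving out a library could not reverse them, and this adds no support. DESeq2 called 15 of the 16, losing Gys1, and limma-voom all 16.

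**Figure D4:**
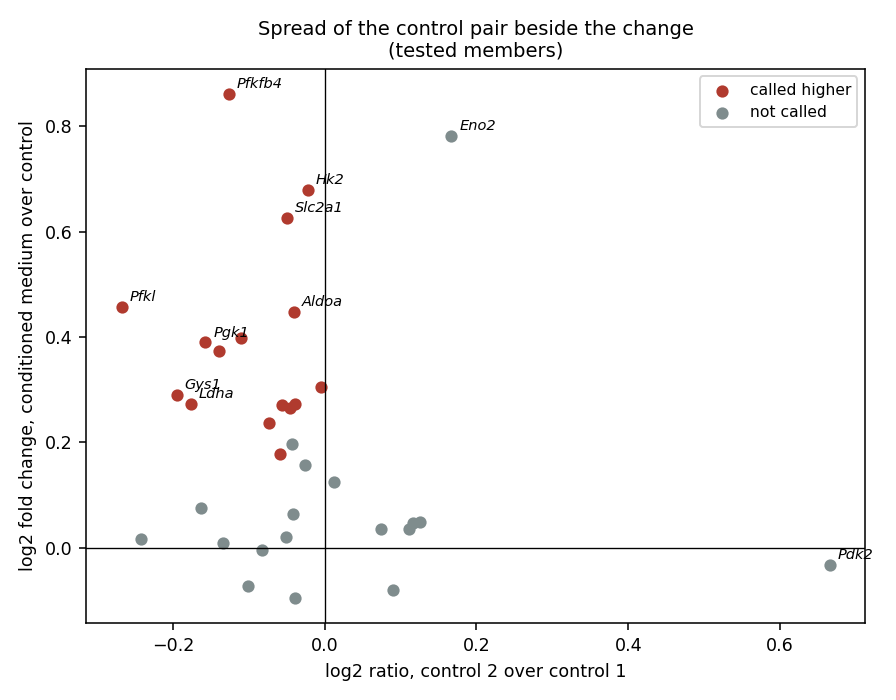
Log2 fold change of conditioned medium over control against the log2 ratio of control 2 over control 1, for the 34 tested members. All 16 members called higher (red) lie left of 0 on the horizontal axis, and 15 of them are farther from 0 on the vertical axis than Gapdh at 0.18.

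Outside the members, a list of 78 further genes of glucose metabolism had 51 tested, of which 7 rose and 1 fell. With both directions pooled 15.7% were called, against 16.8% of all tested genes, of which 8.53% were higher and 8.23% lower. In 20 of the 51 both treated libraries lay above both controls, against 28.5% of all tested genes. In 11 both lay below, against 3997 of the 13897 genes tested. The median log2 fold change was 0.05. The changes ran from -0.39 to 0.74, and some that were not called exceeded those that were. Of the called genes the largest change was in Pdp2, for a phosphatase that reactivates pyruvate dehydrogenase. It stood at 0.55 ± 0.18 on 4.04 to 7.36 CPM (edgeR adjusted p = 0.0407, not called in 5 of 13 alternatives). Next among the called came Pgm1, Eno3, the muscle enolase, at 0.38 ± 0.06, Mpc1, and Gaa, the lysosomal glucosidase, at 0.29 ± 0.06. Gaa was called with all 4 libraries and lost without either treated one. Pdp2 was lost without control replicate 2 and without either treated library. Tigar, which lowers fructose 2,6-bisphosphate, had 16.1 and 17.1 against 15.2 and 14.5 CPM and was not called. Among 17 tested regulators 4 rose and 2 fell (35.3% called, against 16.8% of all tested genes). The falls were in a pair of arrestin genes whose products limit glucose uptake: Txnip went from 889 and 774 CPM to 541 and 514 CPM (-0.66 ± 0.05; edgeR adjusted p = 4.23e-08), and Arrdc4 from 6.85 and 5.75 CPM to 3.39 and 3.05 CPM (-0.97 ± 0.19; edgeR adjusted p = 0.00142, and 0.0764 without conditioned medium replicate 2; alternatives from 4.62e-05). Hif1a, for the oxygen-regulated HIF subunit, rose from 603 and 591 CPM to 696 and 707 CPM (0.23 ± 0.04; edgeR adjusted p = 4.59e-04; up to 0.0997 without a conditioned medium library, alternatives from 9.93e-12). The prolyl hydroxylase genes Egln3 and Egln1, whose products mark HIF for destruction, rose by 0.49 ± 0.05 and 0.28 ± 0.06, the second lost without conditioned medium replicate 2 and in DESeq2 (adjusted p up to 0.174). Myc, another known activator of glycolytic genes, stood at 51.3 and 53.6 against 51.1 and 52.4 CPM.

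Many known HIF targets outside glycolysis rose. Of 32 listed, 29 were tested, 17 rose and 2 fell. This made 65.5% called, against 16.8% of all tested genes (8.53% higher and 8.23% lower). The list was chosen with earlier results of these data known, so this share is a description and no test. Their median log2 fold change was 0.28, beside the trunk's 0.29. The largest were Ero1l, an oxidoreductase of protein folding, from 216 and 170 to 311 and 316 CPM (0.70 ± 0.07; edgeR adjusted p = 5.83e-07; 0.112 with a robust estimate of the spread, alternatives from 1.05e-86), the collagen hydroxylase gene Plod2 at 0.62 ± 0.09, Vegfa at 0.58 ± 0.07, Bnip3 at 0.57 ± 0.10 and Ankrd37 at 0.56 ± 0.17. Ankrd37 was not called in DESeq2, without control replicate 2 or without either treated library (adjusted p up to 0.345). In 13 of the 17 that rose control 2 lay below control 1, and the median log2 ratio of the 17 was -0.14. Over all 29 tested it lay below in 18, with a median of -0.04. DESeq2 called 9 of this list higher, and without conditioned medium replicate 1 or 2 the counts were 11 and 7. Of 24 listed genes of the tricarboxylic acid (TCA) cycle 1 rose, Cs at 0.13 ± 0.04 (edgeR adjusted p = 0.0353; alternatives 0.00329 to 0.398), and 1 fell, Idh3a at -0.17 ± 0.06 (edgeR adjusted p = 0.0455; alternatives 0.0160 to 0.395), with a median of 0.01. Neither was called in DESeq2 or when either treated library was left out, and Idh3a also not without control replicate 1. Of the TCA list 8.33% were called, against 16.8% of all tested genes. The differences between these lists were not tested, and lists that share the same control libraries are given side by side only.

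**Figure D5:**
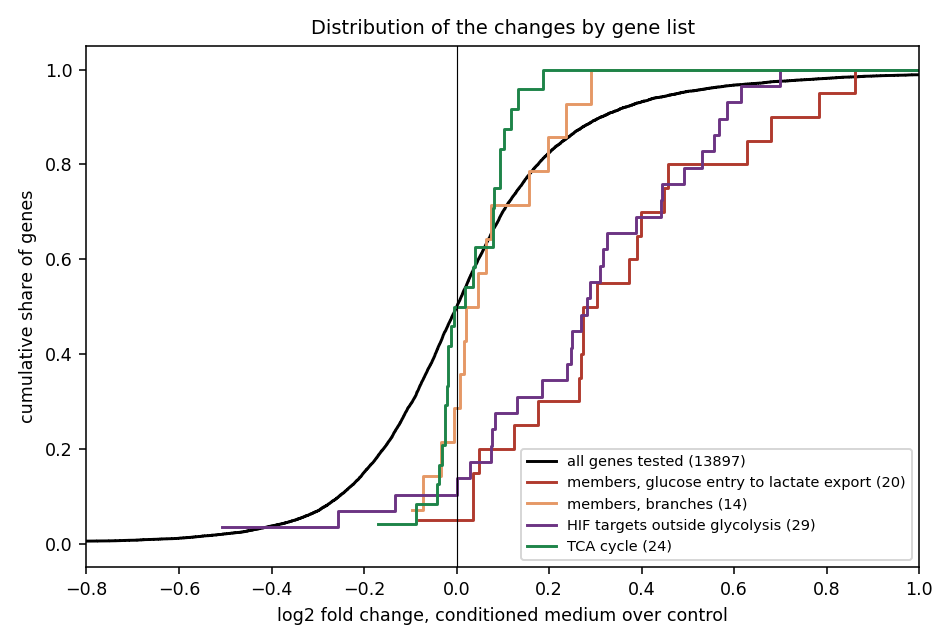
Cumulative share of genes by log2 fold change, conditioned medium over control, for all 13897 tested genes (black, drawn from -0.8 to 1.0) and for 4 lists, with the number of tested genes in brackets. The trunk members (20) and the HIF targets (29) have medians of 0.29 and 0.28, and the branch members (14) and the TCA cycle genes (24) of 0.03 and 0.01.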

How the data were processed

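Total RNA was made into libraries with a TruSeq RNA V2 kit, which does not mark strand, per the labels' protocols. The authors deposited raw counts per Entrez gene. Tools and build recorded in the submitters' processing notes are STAR (2.5.2b), featureCounts and Subread (1.4.6-p1) with mm10, and their settings and annotation were not stated. Of 27179 rows, 25275 matched a RefSeq gene of GRCm38.p6 (mm10), and the 1904 others, 6.31% of counts, stayed in library sizes and tests.

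The deposited counts were fitted in edgeR 4.0.16 (R 4.3.3) with filterByExpr (minimum count 10, total 15), TMM factors (0.987 to 1.01), the quasi-likelihood test and no replicate block, on 2 residual degrees of freedom. The spread of each gene was moderated toward that of other genes, with a median of 18.0 prior degrees of freedom. The common coefficient of variation beyond counting error was 3.58%. The SE is the size of the log2 change divided by the root of F, and 95% intervals use the moderated degrees of freedom. Exon lengths are unions of GENCODE M21 coding-transcript exons. Alternatives changed the scaling (RLE, upper quartile, totals), the count filter, the block, the spread (robust), the threshold (0.01), the tool (DESeq2 1.42.0, limma-voom in limma 3.58.1), or left out a library, when the remaining one of its group is taken to be as variable as the other group. The procedure was tested on simulated counts with independent libraries, the same spread for every gene and no shift between the controls. The condition for passing looked only at the largest simulated fold and the share of false calls. It therefore does not speak to rises as small as those of the members. The members and lists were chosen with earlier results of these data known. All members are named. From each other list the 5 called genes of largest change are named, and G6pdx, Pdk4, Txnip, Bsg, Mpc1, Mpc2, Tigar, Hif1a and Myc always. Eno1b was added after its values were seen. Egln1 and Egln3 stand in 2 lists. Spans of 11 members overlap another counted gene, and how such reads were counted was not stated.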

Additional observations from a re-analysis of the deposited data

How the results depend on the processing

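Scaling by RLE, upper quartile or library totals, no count filter, a filter at 1 CPM in 2 libraries, a robust spread and limma-voom each called the same 16 members higher and 0 lower. These scalings moved the median of all genes by at most 0.02. Labels share replicate numbers, but the deviations of same-numbered libraries correlated at -0.04 over 10662 genes, so the numbers were not taken as pairs; with a replicate block 1361 genes were called higher and 1310 lower, and 16 members higher. DESeq2 called 435 genes higher and 422 lower, and an adjusted p under 0.01 left 680 and 628. In DESeq2, HIF targets gave 9 higher and 1 lower and the TCA list 0 and 0; the TCA fall was also lost (0) with upper-quartile or library-total scaling and no count filter. The causes were not tested.

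With a library left out, calls over all genes ranged from 323 to 1485 higher and from 246 to 1622 lower, and members higher from 8 to 16. Other pathway genes ranged from 3 to 13 higher and 1 to 5 lower, HIF targets from 7 to 19 and 1 to 3, and TCA genes from 0 to 2 and 0 to 1. Log2 fold changes near 0 changed sign: Pfkp (-0.0023 to 0.072), Pfkfb2 (-0.013 to 0.11), Pfkfb3 (-0.017 to 0.093), Pdk2 (-0.33 to 0.33), Pdk3 (-0.050 to 0.099), Dlat (-0.059 to 0.075), Pgd (-0.0038 to 0.16), Taldo1 (-0.012 to 0.10), Rpia (-0.099 to 0.14) and Pdhb (-0.046 to 0.036), the last also with upper-quartile (0.010) and library-total scaling (0.0034). The gain in trunk share ran from 0.131 to 0.147 percentage points. The gains in family share were 1.13 to 1.84 points for Hk2, 3.75 to 8.74 for Pfkl, 3.903 to 5.07 for Pfkfb4 and 1.89 to 4.98 for Pdk1. None of these shares overlapped between the groups, so leaving out a library could not change the sign of a gain.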
